A study of Mus musculus with 22 samples.

Results

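The transcripts described here came from 10 imprinted growth genes, *Igf2*, *H19*, *Dlk1*, *Meg3*, *Peg3*, *Mest*, *Plagl1*, *Cdkn1c*, *Grb10* and *Igf2r*, of the 55401 gene identifiers that were counted in 22 RNA-seq libraries of mouse embryonic fibroblasts (MEFs). The 10 genes are a list of imprinted genes that was written with earlier results of these libraries in view, in which *Igf2* was among the genes with the lowest late-passage levels. The members were thus chosen by passage levels. Comparisons of late with early passage and of the 2 MEF sets are therefore given for them as a description. No p-value is printed for a member there, and counts past the threshold are not read as a result. All 10 passed the filter on low counts in both sets. The *S6K1* set held 4 early-passage WT libraries (passage 3), 4 late-passage WT libraries (passage 8) and 3 late-passage *S6K1* KO libraries (passage 8). The *S6K1/S6K2* set held 4 early-passage WT libraries (passage 3), 4 late-passage WT libraries (passage 8) and 3 late-passage *S6K1/S6K2* DKO libraries (passage 8). All MEFs were on a C57BL/6 background, were prepared from mid-gestation embryos without head and viscera, and were passaged in atmospheric oxygen with no added drug or transgene. *S6K1* and *S6K2* encode the ribosomal protein S6 kinases downstream of mTORC1, and both knockouts are present in all cells from conception. KO and WT MEFs of the *S6K1* set came from littermates of heterozygous crosses. DKO embryos and their WT controls came from separate crosses, so that genotype and litter cannot be told apart in that set. The labels do not say which libraries share an embryo or mother, and p-values measure the spread between libraries.

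Imprinted genes are expressed from 1 parental allele, set by DNA methylation laid down in the germ line and kept through cell division. Several act on growth: *Igf2* encodes the fetal growth factor IGF-II, *Igf2r* the receptor that takes it up for degradation, and *Grb10* an adaptor that restrains insulin and IGF signalling. *Cdkn1c* encodes the cyclin-dependent kinase inhibitor p57, *Dlk1* a Notch-like transmembrane protein of fetal and preadipose cells, *Plagl1* a zinc-finger transcription factor, *Peg3* another zinc-finger protein, and *Mest* an enzyme-like protein of mesoderm. *H19* and *Meg3* are long noncoding RNAs from the maternal allele, transcribed beside *Igf2* and *Dlk1*, respectively. In mouse embryos *Igf2*, *Dlk1*, *Peg3*, *Mest* and *Plagl1* are known as paternally expressed, and *H19*, *Meg3*, *Cdkn1c*, *Grb10* and *Igf2r* as maternally expressed in most tissues. Gene-level counts carry no allele, so the parental origin of the transcripts was not measured.

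The sequences before the start sites are shown for *Igf2*, *Igf2r* and *Meg3*, whose late WT and early WT libraries did not overlap in either set. The share of all genes without such overlap was not counted, so here and below non-overlap is a description only. They are the 250 bases before each start in RefSeq (build GRCm38.p6, the mm10 assembly that the submitters' processing notes name), 5′ to 3′ on the gene's strand, with CG dinucleotides, the sites of DNA methylation, in capitals. *Igf2* lies on the minus strand of chromosome 7 (142650768-142666816) and has 4 listed starts, from the most upstream (start 1) to the most downstream (start 4), at chr7:142666817-142667066, chr7:142661272-142661521, chr7:142658805-142659054 and chr7:142657497-142657746. *Igf2r* is on the minus strand (chr17:12769707-12769956) and the upstream start of *Meg3* on the plus strand (chr12:109540746-109540995).
Igf2 start 1: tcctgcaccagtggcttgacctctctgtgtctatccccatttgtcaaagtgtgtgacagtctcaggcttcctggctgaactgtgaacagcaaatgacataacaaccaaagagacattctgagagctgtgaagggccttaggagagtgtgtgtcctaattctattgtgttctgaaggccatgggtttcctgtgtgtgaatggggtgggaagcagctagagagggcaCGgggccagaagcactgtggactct
Igf2 start 2: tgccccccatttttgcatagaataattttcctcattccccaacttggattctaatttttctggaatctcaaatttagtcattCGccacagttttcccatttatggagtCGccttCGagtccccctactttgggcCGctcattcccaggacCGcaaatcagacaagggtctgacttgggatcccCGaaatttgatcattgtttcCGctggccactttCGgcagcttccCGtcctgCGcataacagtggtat
Igf2 start 3: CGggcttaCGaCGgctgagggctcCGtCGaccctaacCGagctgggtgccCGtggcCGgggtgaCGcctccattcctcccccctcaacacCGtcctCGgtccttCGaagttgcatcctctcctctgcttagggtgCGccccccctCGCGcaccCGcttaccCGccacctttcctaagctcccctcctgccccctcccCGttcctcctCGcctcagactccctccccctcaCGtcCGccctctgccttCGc
Igf2 start 4: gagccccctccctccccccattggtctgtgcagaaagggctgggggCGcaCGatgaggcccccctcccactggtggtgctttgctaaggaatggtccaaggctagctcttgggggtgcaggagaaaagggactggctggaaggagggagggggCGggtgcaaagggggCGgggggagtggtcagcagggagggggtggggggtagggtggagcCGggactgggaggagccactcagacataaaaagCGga
Igf2r start: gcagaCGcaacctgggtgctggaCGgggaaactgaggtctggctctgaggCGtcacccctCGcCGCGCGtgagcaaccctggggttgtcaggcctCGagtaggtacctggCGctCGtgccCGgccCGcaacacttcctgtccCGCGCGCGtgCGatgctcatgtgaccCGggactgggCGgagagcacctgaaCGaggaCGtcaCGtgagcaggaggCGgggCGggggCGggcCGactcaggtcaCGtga
Meg3 start 1: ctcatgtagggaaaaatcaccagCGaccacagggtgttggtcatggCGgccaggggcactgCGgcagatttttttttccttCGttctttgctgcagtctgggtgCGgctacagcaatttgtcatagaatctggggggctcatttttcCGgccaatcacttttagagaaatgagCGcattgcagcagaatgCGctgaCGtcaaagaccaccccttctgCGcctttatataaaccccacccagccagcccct

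The *Igf2* windows held 1, 10, 22 and 6 CG dinucleotides from start 1 to start 4, the *Igf2r* window 27 and the *Meg3* window 10, against a median of 6 over the 32851 windows of the table. At least as many as in the *Igf2r* window were found in 8.56% of all windows, and as in *Igf2* start 3 in 14.8%. GGGCGG, counted on both strands, was present once before *Igf2* start 3, 2 times before start 4 and 3 times before *Igf2r*, and in 32.7% of all windows. TATAAA, on both strands, was present 2 times before *Meg3*, overlapping each other, and in 12.4% of all windows, and was absent from the *Igf2* and *Igf2r* windows. TGCCGC, on both strands, was present once before *Meg3* and in 8.68% of all windows. Across all 8 genes with a window, the range was 0 CG dinucleotides before the second *Meg3* start to 40 before *Grb10* start 1. Gene-level counts do not say which start was used.

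Total counts were 10742454 to 17314832 per library, so that 3 counts were 0.173 to 0.279 CPM, the reads of a gene scaled to a common library total and the unit of every level below. *Rps6kb1*, which encodes S6K1, had 12.98 to 23.3 CPM in KO against 55.0 to 71.8 in late WT libraries, and 19.6 to 30.0 in DKO against 61.5 to 91.9. *Rps6kb2*, which encodes S6K2, had 0.465 to 1.44 CPM in DKO against 10.7 to 17.01 in late WT libraries. All 10 fibroblast markers had counts in every group, with summed levels of 30901 to 43285 CPM in early WT and 19371 to 30338 CPM in the 4 late groups. Markers of other cells moved with the groups. The 19 macrophage markers summed to 411 to 1155 CPM in early WT, 5190 to 10947 in late WT and 3602 to 4494 in KO libraries of the *S6K1* set, and to 641 to 2020, 7854 to 13050 and 974 to 3297 CPM in early WT, late WT and DKO libraries of the other set. Of these 19, 19 and 18 were higher in late than in early WT of the *S6K1* and *S6K1/S6K2* sets and 18 were lower in DKO, and none was at 0 counts in a whole group. Over all genes, 6.96% and 8.28% were called higher with passage (adjusted p under 0.05 by edgeR), 3.95% lower in DKO and 0.0354% lower in KO. The 10 proliferation markers summed to 597 to 804, 460 to 762 and 316 to 567 CPM in early WT, late WT and KO libraries and to 405 to 688, 338 to 423 and 205 to 248 CPM in early WT, late WT and DKO libraries. The 6 adipocyte markers summed to 62.7 to 158, 160 to 362 and 83.3 to 150 CPM in early WT, late WT and KO libraries and to 61.1 to 75.5, 131 to 283 and 80.2 to 96.1 CPM in early WT, late WT and DKO libraries, with late WT above both others in each set. Of 4 tested, 2 and 3 were higher in late than in early WT of the *S6K1* and *S6K1/S6K2* sets, 1 was lower in DKO and none passed in KO by edgeR (2 at an unadjusted p under 0.05, and 1 by DESeq2). Over all genes, 1499 of 14132 had an unadjusted p under 0.05 in KO. Y-linked transcripts were present in 2 of 4 early WT, 1 of 4 late WT and 3 of 3 KO libraries of the *S6K1* set and in 2 of 4 early WT, 3 of 4 late WT and 1 of 3 DKO libraries of the other, so that the groups differed in sex. The part of these shifts in the results that follow was not tested. In bulk RNA, fewer cells of a type and less RNA per cell cannot be told apart. The 6 hepatoblast markers, of a fetal cell type rich in *Igf2* and *H19*, summed to at most 1.12 CPM in any library. The 11 skeletal muscle markers summed to 58.2 to 180, 45.3 to 173 and 90.6 to 251 CPM in early WT, late WT and KO libraries. In the other set they summed to 66.9 to 199, 17.6 to 156 and 18.4 to 43.2 CPM in early WT, late WT and DKO libraries. Over all libraries, *Acta1* and *Des* held 21906 and 10240 of these counts, and *Myod1* and *Myog* 2 and 4. The part of such cells in the values below was not tested.

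*Igf2* mRNA lay near the limit of counting in late-passage WT MEFs of both sets. Early WT libraries of the *S6K1* set had 29.2, 42.5, 16.8 and 40.2 CPM, and late WT libraries 0.455, 0.686, 0.300 and 0.578 CPM, which rest on 5 to 9 reads each. The lowest early library was far above the highest late one. The log2 fold change was -6.05 ± 0.42 (SE, n = 4 against 4). Early WT libraries of the *S6K1/S6K2* set had 24.0, 24.9, 13.2 and 10.7 CPM and late WT libraries 1.25, 0.983, 0.421 and 0.671 CPM, from 6 to 20 reads. Here too the groups did not overlap, with a log2 fold change of -4.34 ± 0.51 (n = 4 against 4). *Igf2as*, an antisense transcript that overlaps *Igf2*, had 5.22 to 11 CPM in the early and 0 to 1.29 CPM in the late WT libraries of both sets, and since the strand setting of the counting is not stated, reads of the 2 genes may not be separable.

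**Figure D1:**
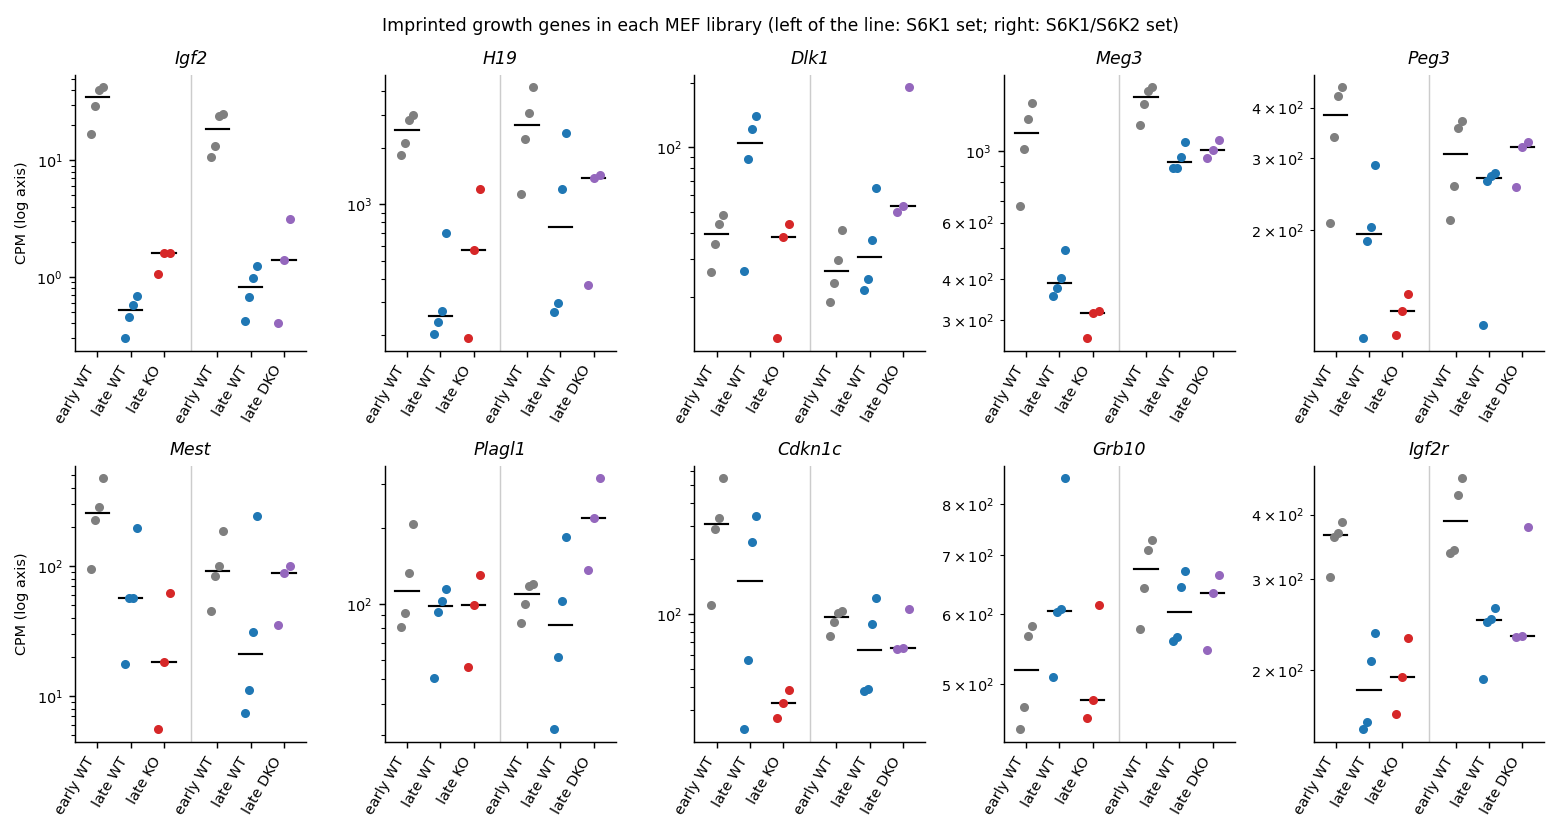
Level of each of the 10 genes in every library (CPM, log axis), by group; points are libraries and bars group medians. *Igf2* was at 10.7 to 42.5 CPM in all 8 early WT libraries and at 0.300 to 1.25 CPM in all 8 late WT libraries, whereas *Grb10* stayed within 445 to 856 CPM in all 22.

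*H19*, the noncoding RNA that shares an imprinting control region with *Igf2*, was abundant at early passage. Early WT libraries of the *S6K1* set had 2975, 2830, 2127 and 1836 CPM and late WT libraries 236, 270, 202 and 702 CPM, with no overlap (log2 fold change -2.79 ± 0.52, n = 4 against 4). Early WT libraries of the *S6K1/S6K2* set had 4213, 3079, 2236 and 1139 CPM, and late WT libraries 1213, 296, 265 and 2411 CPM, so that 2 late libraries lay among the early ones (log2 fold change -1.28 ± 0.69, n = 4 against 4). Without SG60 (2411 CPM) the log2 fold change of that set was -2.10, and without SG23 (702 CPM) that of the *S6K1* set was -3.38. The log2 ratio of *H19* to *Igf2* counts (0.5 added to each, not scaled to length) was 6.30 ± 0.65 (SD, n = 4) in early and 9.22 ± 0.69 (n = 4) in late WT libraries of the *S6K1* set, and 7.13 ± 0.35 (n = 4) and 9.75 ± 1.499 (n = 4) in those of the *S6K1/S6K2* set. Neither set overlapped: the highest early ratios were 6.98 and 7.46 and the lowest late ratios 8.54 and 8.19. *Ins2* and *Nctc1*, 2 further genes of this domain, had no counts in any group.

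*Meg3* and *Dlk1*, the other noncoding RNA and protein gene pair, did not move together. *Meg3* levels in the *S6K1* set were 674, 1255, 1011 and 1407 CPM in early and 355, 493, 376 and 404 CPM in late WT libraries, with no overlap (log2 fold change -1.47 ± 0.27, n = 4 against 4). In the *S6K1/S6K2* set they were 1205, 1400, 1536 and 1577 CPM in early and 1068, 883, 885 and 959 CPM in late WT libraries, again apart but nearer to each other (-0.52 ± 0.14, n = 4 against 4). *Dlk1* had 26.3, 48.5, 35.3 and 43.8 CPM in early and 26.5, 140, 122 and 88.0 CPM in late WT libraries of the *S6K1* set, so that 3 of 4 late libraries lay above all early ones and 1 among them (1.24 ± 0.46, n = 4 against 4). The *Dlk1* levels of the *S6K1/S6K2* set were 41.4, 19.1, 23.4 and 29.8 CPM in early and 36.9, 64.7, 24.4 and 21.6 CPM in late WT libraries, which overlapped (0.46 ± 0.46, n = 4 against 4). The log2 ratio of *Meg3* to *Dlk1* counts was 4.80 ± 0.15 (SD, n = 4) in early and 2.34 ± 0.96 (n = 4) in late WT libraries of the *S6K1* set and 5.70 ± 0.59 (n = 4) and 4.82 ± 0.74 (n = 4) in those of the other set. Only the *S6K1* set showed no overlap in this ratio, and the difference between the sets was not tested.

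**Figure D2:**
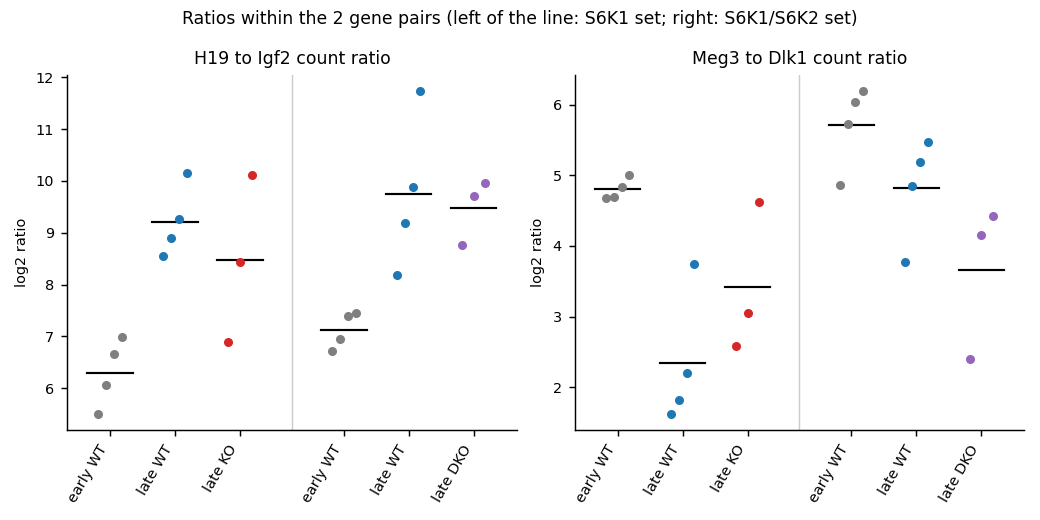
log2 ratio of *H19* to *Igf2* counts and of *Meg3* to *Dlk1* counts in each library, by group; points are libraries and bars group means. The *H19* to *Igf2* ratio of every late WT library (8.19 or more) lay above that of every early WT library (7.46 or less), whereas the *Meg3* to *Dlk1* means moved the other way, from 4.80 to 2.34 and from 5.70 to 4.82.

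*Igf2r*, which encodes the IGF-II clearance receptor, had lower levels at late passage in both sets. Early WT libraries had 386, 303, 363 and 368 CPM and late WT libraries 154, 208, 236 and 159 CPM in the *S6K1* set (log2 fold change -0.94 ± 0.17, n = 4 against 4). The corresponding levels of the *S6K1/S6K2* set were 437, 470, 341 and 337 CPM and 264, 248, 193 and 252 CPM (-0.65 ± 0.15, n = 4 against 4). In neither set did the groups overlap. *Airn*, the paternally expressed antisense RNA that begins inside *Igf2r* and is known to silence it in cis, fell as well, from 3.12 to 5.72 CPM in early to 0.908 to 1.83 CPM in late WT libraries of the *S6K1* set (log2 fold change -1.40 ± 0.31, adjusted p = 0.0121, n = 4 against 4) and from 2.58 to 7.58 to 1.34 to 2.75 CPM in the other set (-1.29 ± 0.35, adjusted p = 0.0311). *Airn* and *Igf2r* overlap on opposite strands of chromosome 17 (*Igf2r* 12682406-12769706, *Airn* 12741311-12859884), and reads in the shared stretch may not be separable. *Slc22a2* and *Slc22a3*, their neighbours, averaged at most 0.0231 CPM in every group.

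The remaining 5 genes overlapped between early and late WT libraries in both sets, and most differed widely between libraries of 1 group. *Grb10* was the steadiest, with 445 to 582 CPM in early and 510 to 856 CPM in late WT libraries of the *S6K1* set and 578 to 729 and 560 to 673 CPM in those of the *S6K1/S6K2* set (log2 fold changes 0.30 ± 0.20 and -0.05 ± 0.14, n = 4 against 4 in each). *Peg3* ranged from 207 to 449 CPM in early and 108 to 289 CPM in late WT libraries of the *S6K1* set (-0.91 ± 0.32), and from 212 to 370 and 116 to 276 CPM in the other (-0.29 ± 0.28). *Usp29*, transcribed from the same promoter region as *Peg3*, fell in the *S6K1* set (-1.40 ± 0.34, adjusted p = 0.0179) from low levels of 2.40 to 4.19 CPM. *Mest* had 94.5, 475, 286 and 228 CPM in early and 17.7, 197, 56.9 and 56.8 CPM in late WT libraries of the *S6K1* set (-1.75 ± 0.78, and -2.70 without SG21), and 188, 83.8, 100.8 and 45.3 CPM and 242, 31.2, 11.1 and 7.38 CPM in those of the *S6K1/S6K2* set (-0.44 ± 0.93). In the latter, 3 late libraries lay below all early ones and SG57 above them, and without SG57 the log2 fold change was -2.55. *Cdkn1c* spanned 112 to 545 CPM in early and 23.7 to 340 CPM in late WT libraries of the *S6K1* set (-0.9975 ± 0.68, and -1.67 without SG21), and 76.3 to 104 and 38.4 to 122 CPM in those of the other (-0.30 ± 0.35). *Plagl1* spanned 81.0 to 207 and 50.5 to 115 CPM (-0.54 ± 0.38), and 83.8 to 120 and 31.7 to 184 CPM (-0.06 ± 0.43).

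Counted over the list, 4 of 10 genes passed the adjusted threshold in the comparison of late with early WT of the *S6K1* set, all lower (*Igf2*, *H19*, *Meg3* and *Igf2r*), and 3 of 10 in the *S6K1/S6K2* set, all lower (*Igf2*, *Meg3* and *Igf2r*). Over all genes, 12.9% (14132 tested) and 13.2% (14365 tested) passed in either direction, 6.96% and 8.28% higher and 5.97% and 4.89% lower. Without the early WT library SG47 or the late WT library SG59 of the *S6K1/S6K2* set, 1 of 10 passed there, *Igf2*. Because these contrasts chose the list, nothing is read from these counts or from the medians of the 10 genes that follow. The median log2 fold change of the 10 genes was -0.97 and -0.37, against -0.04 and 0.01 over all genes tested. The 5 paternally expressed genes had medians of -0.91 and -0.29 with 4 of 5 below 0 in each set, and the 5 maternally expressed genes -0.9975 and -0.52 with 4 and 5 of 5 below 0. *Dlk1* lay above 0 in both sets. The early and late WT libraries of a set also differed in the marker sums and Y-linked transcripts given above.

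**Figure D3:**
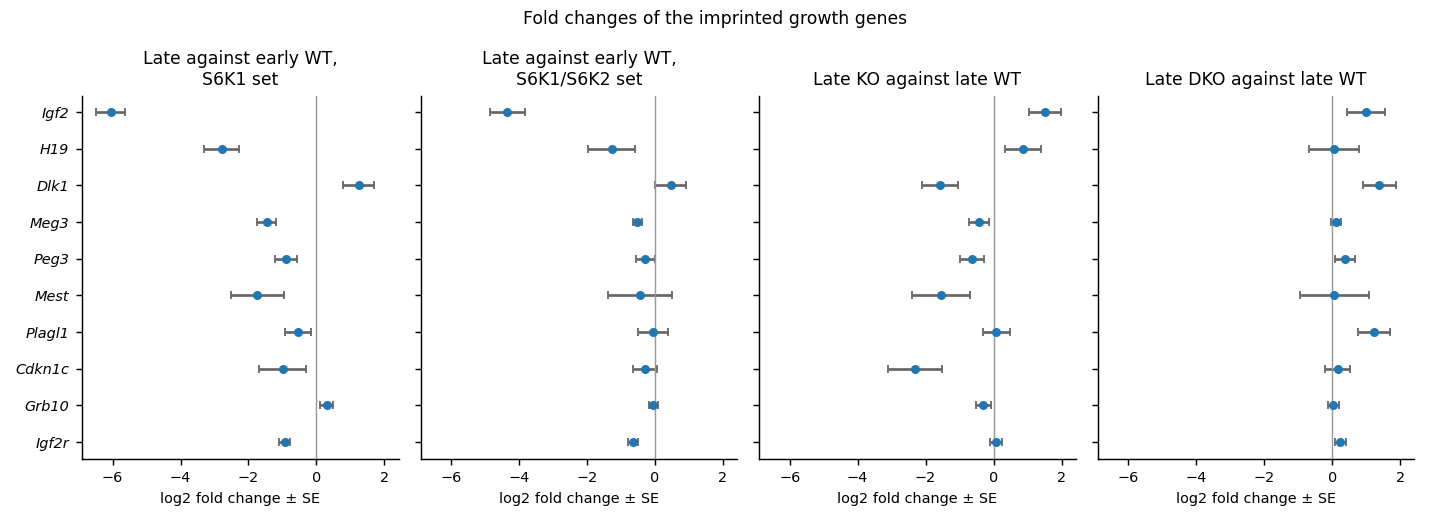
log2 fold change (± SE from the edgeR fit) of the 10 genes in the 4 comparisons, with n = 4 against 4 for passage and 3 against 4 for genotype. *Igf2* lay at -6.05 and -4.34 with passage, and *Dlk1* and *Cdkn1c* at -1.58 and -2.32 in KO but at 1.39 and 0.16 in DKO libraries.

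The 10 genes differed in how far libraries of the same group lay apart, a measure that the choice of the list did not use. The SD between libraries of a group on the log2 CPM scale, pooled over the 6 groups (16 degrees of freedom), was 1.45 for *Mest*, 1.05 for *H19*, 0.98 for *Cdkn1c*, 0.81 for *Dlk1*, 0.73 for *Igf2*, 0.67 for *Plagl1* and 0.47 for *Peg3*. It was 0.26 for *Igf2r*, 0.25 for *Meg3* and 0.21 for *Grb10*, below the median of 0.32 over 13008 genes with a mean of at least 1 CPM. An SD as large as that of *Mest* was reached by 1.03% of these genes, of *H19* by 3.14% and of *Cdkn1c* by 4.02%. *Igf2* levels rest in part on few reads at late passage, which adds counting error to its SD. Among late WT libraries, *Mest* differed 32.7-fold in the *S6K1/S6K2* set and *Cdkn1c* 14.4-fold in the *S6K1* set between the lowest and the highest. The library SG19 of late WT *S6K1* MEFs was the lowest of its group in *Dlk1*, *Meg3*, *Peg3*, *Mest*, *Cdkn1c*, *Grb10* and *Igf2r*, and also had the highest macrophage marker sum of its group, 10947 CPM. SG22 of that group, with a sum of 10113 CPM, was the highest in *Igf2r* and the lowest in *Igf2*, *H19* and *Plagl1*. Any link between marker sum and these levels was not tested.

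**Figure D4:**
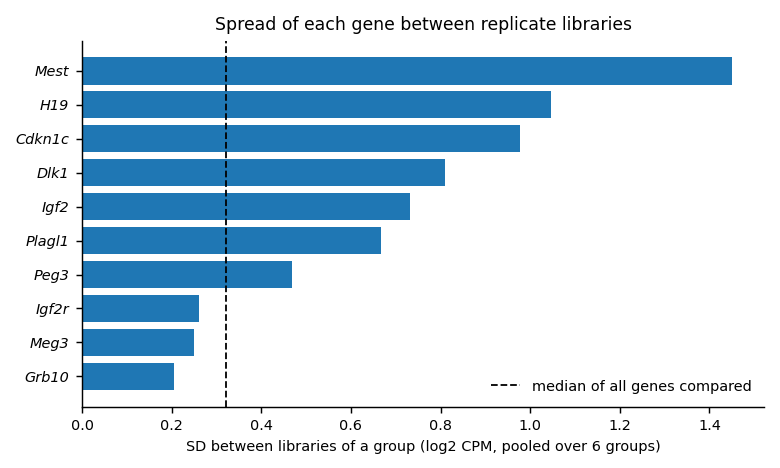
SD of log2 CPM between libraries of the same group for each of the 10 genes, pooled over 6 groups; the dashed line is the median over 13008 genes (0.32). *Mest* (1.45), *H19* (1.05) and *Cdkn1c* (0.98) varied most, and *Grb10* (0.21), *Meg3* (0.25) and *Igf2r* (0.26) lay left of the line.

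Compared per kilobase of exon (GENCODE vM1), *H19* had the highest level of the 10 genes in every group, with group means of 149 to 1124 CPM per kb. In early WT libraries *Igf2*, *Dlk1* and *Plagl1* were at the lower end, with means of 3.32 to 5.86, 5.02 to 6.80 and 14.5 to 17.6 CPM per kb. *Meg3*, *Grb10* and *Igf2r* had 37.6 to 79.0 CPM per kb there, and *Cdkn1c* 48.2 and 165. In late WT libraries *Igf2*, whose low late-passage level was known when the list was written, was the lowest of the 10, at 0.0919 and 0.151 CPM per kb.

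The loss of *S6K1* was compared with WT at late passage next. These comparisons share their late WT libraries with the passage comparisons, and the values of each are given on their own. *Igf2* was known to be low at late passage when the list was written. Its values above late WT may be built in by that choice in part, and its p-values are not read as a result. No member passed the adjusted threshold in KO MEFs by edgeR's quasi-likelihood test (0 of 10, 3 at an unadjusted p under 0.05, and 0 by DESeq2), where 0.0425% of 14132 genes passed, 0.00708% higher and 0.0354% lower. Over all genes, 1499 of 14132 had an unadjusted p under 0.05 in this comparison. *Igf2* had 1.61, 1.06 and 1.60 CPM in KO libraries, from 17 to 23 reads, all above the 0.300 to 0.686 CPM of late WT libraries and all below the 16.8 CPM of the lowest early one (log2 fold change to late WT 1.52 ± 0.48, adjusted p = 0.305, n = 3 against 4). *Dlk1* had 44.0, 38.1 and 12.9 CPM in KO libraries, below 3 of 4 late WT libraries (-1.58 ± 0.52, adjusted p = 0.314). *Cdkn1c* had 38.4, 27.3 and 32.8 CPM, between the lowest late WT library (SG19, 23.7 CPM) and the other three (56.5 to 340 CPM; -2.32 ± 0.80, adjusted p = 0.332). Without SG19 the KO libraries lay below all late WT libraries in both genes, at -1.88 ± 0.40 (adjusted p = 0.116) for *Dlk1* and -2.68 ± 0.66 (adjusted p = 0.141) for *Cdkn1c*. Without SG21, the highest late WT library in both genes, *Cdkn1c* lay at -1.65 (adjusted p = 0.588) and *Dlk1* at -1.29 (adjusted p = 0.534). *Dlk1* lay at -1.22 without the KO library SG27 (adjusted p = 0.6275).

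Among the other genes, *Meg3* had 264, 315 and 320 CPM in KO libraries, all below the 355 to 493 CPM of late WT (-0.43 ± 0.28, adjusted p = 0.642, n = 3 against 4). *H19* had 568, 1204 and 194 CPM (0.87 ± 0.52, adjusted p = 0.599), *Mest* 18.4, 62.5 and 5.55 CPM (-1.55 ± 0.86, adjusted p = 0.572) and *Peg3* 139, 110 and 126 CPM (-0.64 ± 0.35, adjusted p = 0.565), each overlapping late WT. *H19* and *Mest* depended on single libraries: *H19* lay at 0.0988 without SG25 and 1.45 without SG23, and *Mest* at -0.60 without SG21 and -2.79 without SG25. *Grb10*, *Igf2r* and *Plagl1* lay at -0.30 ± 0.21, 0.07 ± 0.18 and 0.08 ± 0.40. The 4 Y-linked transcripts were at 211 to 268 CPM in all 3 KO libraries but in 1 of 4 late WT libraries (256 CPM, the other three at most 0.303 CPM), so that sex differed between these groups. With the Y-linked level as a covariate, *Igf2* passed the threshold (2.37 ± 0.37, adjusted p = 0.0323) and the other 9 genes did not. The *Igf2* value is a description, because its low late-passage level entered the choice of the list. The covariate moved *Plagl1* from 0.08 to 1.05 (adjusted p = 0.157) and *Mest* from -1.55 to -0.79 (adjusted p = 0.770).

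In *S6K1/S6K2* DKO MEFs none of the 10 genes passed the threshold by edgeR (0 of 10, 2 at an unadjusted p under 0.05, and 1 by DESeq2), where 4.78% of 14365 genes passed, 0.821% higher and 3.95% lower. Over all genes, 2643 of 14365 had an unadjusted p under 0.05. The fold changes of all 10 genes lay above 0, but the share of all genes above 0 was not counted. Those of *H19*, *Mest*, *Cdkn1c* and *Grb10* were near 0, and their sign turned when single libraries were left out. *Dlk1* had 50.0, 53.5 and 191 CPM in DKO against 36.9, 64.7, 24.4 and 21.6 CPM in late WT libraries, with 1 DKO library above all others (1.39 ± 0.49, adjusted p = 0.150, n = 3 against 4). DESeq2 called it higher (adjusted p = 0.0304), and without that library, SG64, it lay at 0.55 (adjusted p = 0.544). *Plagl1* had 137, 220 and 315 CPM in DKO against 184, 61.3, 103 and 31.7 CPM in late WT libraries (1.23 ± 0.46, adjusted p = 0.179). The overlap rests on SG57 (184 CPM), and without it *Plagl1* passed (1.75 ± 0.39, adjusted p = 0.0282). Over all genes, 275 rather than 118 were called higher without SG57. *Plagl1* lay at 0.95 without SG60 (adjusted p = 0.208) and at 0.97 without SG64 (adjusted p = 0.403). *Igf2* had 0.403, 1.40 and 3.15 CPM in DKO libraries, a range that takes in all late WT values (1.00 ± 0.56, adjusted p = 0.381), and without SG64 (3.15 CPM) its log2 fold change was 0.15 (adjusted p = 0.930).

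*Mest* had 35.3, 89.2 and 100.7 CPM in DKO libraries (0.07 ± 1.01, adjusted p = 0.984, n = 3 against 4), and without SG57 its log2 fold change was 2.17 ± 0.60 (adjusted p = 0.0603). *H19* (373, 1431 and 1382 CPM) and *Meg3* (1078, 949 and 1009 CPM) lay within or near the late WT ranges, at 0.05 ± 0.73 and 0.11 ± 0.15, and *H19* at 0.87 without SG60 (adjusted p = 0.580). *Peg3* (330, 255 and 320 CPM), *Igf2r* (231, 233 and 378 CPM), *Cdkn1c* (107, 65.0 and 64.5 CPM) and *Grb10* (665, 635 and 548 CPM) were at 0.39 ± 0.30, 0.24 ± 0.17, 0.16 ± 0.37 and 0.04 ± 0.15. The macrophage, proliferation and adipocyte marker sums were lower in DKO than in late WT libraries and sex differed, as given above, and their part in these values was not tested.

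The KO and DKO effects were set against each other in 1 fit of all 6 groups. No gene of the 10 passed (0 of 10, 3 at an unadjusted p under 0.05), where 0.00672% of 14886 genes did. Over all genes, 1626 of 14886 had an unadjusted p under 0.05. As a comparison of the 2 sets, the values of the members are a description. *Dlk1* had the widest difference, 2.98 ± 0.75 on the log2 scale (DKO effect minus KO effect), followed by *Cdkn1c* at 2.50 ± 0.90 and *Mest* at 1.62 ± 1.37. The log2 ratio of *H19* to *Igf2* counts was 8.48 ± 1.61 (SD, n = 3) in KO and 9.48 ± 0.63 (n = 3) in DKO libraries, and that of *Meg3* to *Dlk1* counts 3.42 ± 1.07 (n = 3) and 3.66 ± 1.10 (n = 3), each overlapping late WT. All 3 KO libraries were below the late WT mean of *Dlk1* (94.2 CPM) and all 3 DKO libraries above theirs (36.9 CPM). Libraries overlapped in both sets: late WT SG19 (26.5 CPM) lay within the KO range, and late WT SG58 (64.7 CPM) within the DKO range.

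Other imprinted genes were counted from a list of 59 that matched the table, of which 43 were tested in each set. Their median log2 fold changes with passage were -0.10 and 0.00, near those of all genes. In all, 5 of 43 passed in the *S6K1* set (1 higher, 4 lower) and 5 of 43 in the *S6K1/S6K2* set (3 higher, 2 lower), beside the 12.9% and 13.2% of all genes given above. *Slc38a4*, a paternally expressed amino acid transporter gene, fell in both, from 46.6 to 83.2 CPM to 4.73 to 13.7 CPM (-2.44 ± 0.37, adjusted p = 0.00108, n = 4 against 4) and from 51.1 to 83.3 CPM to 7.25 to 28.1 CPM (-2.15 ± 0.37, adjusted p = 0.00442). *Ampd3*, which encodes AMP deaminase, rose in both (1.203 ± 0.25, adjusted p = 0.00726, and 0.78 ± 0.20, adjusted p = 0.0249). In the *S6K1/S6K2* set *Slc22a18*, an organic cation transporter gene beside *Cdkn1c*, rose to 3.22 to 7.37 CPM (1.08 ± 0.26, adjusted p = 0.0199), and *Qpct*, which encodes glutaminyl cyclase, rose as well (1.02 ± 0.31, adjusted p = 0.0493). *Cd81*, *Tssc4*, *Nap1l4* and *Osbpl5*, abundant genes of the *Cdkn1c* domain, lay between -0.13 and 0.39 in both sets. None of 43 passed in KO libraries by edgeR (2 at an unadjusted p under 0.05, beside 1499 of 14132 genes, and 0 by DESeq2). In DKO libraries 2 of 43 passed, both lower, a share near the 4.78% of all genes (3.95% lower): *Ampd3* (2.89 to 4.28 against 9.25 to 13.8 CPM, -1.67 ± 0.23, adjusted p = 0.00385) and *Gatm*, a gene of creatine synthesis (-1.64 ± 0.36, adjusted p = 0.0259).

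Ligands, receptors and binding proteins of IGF signalling were listed next. Of 14 tested genes of 18, 2 rose and 3 fell in the *S6K1* set, where 6.96% of all genes were called higher and 5.97% lower, and 1 rose and 4 fell in the *S6K1/S6K2* set, where 8.28% were called higher and 4.89% lower. *Igf1*, which encodes the postnatal growth factor IGF-I, rose from 25.1 to 54.9 CPM to 116 to 183 CPM (1.84 ± 0.25, adjusted p = 0.00051, n = 4 against 4) and from 18.1 to 39.0 CPM to 117 to 187 CPM (2.54 ± 0.26, adjusted p = 0.000283). In neither set did the early and late WT libraries overlap. *Igfbp5*, an IGF-binding protein gene, fell in both sets (-2.90 ± 0.71, adjusted p = 0.0192, and -2.51 ± 0.26, adjusted p = 0.000303), and so did *Igf2bp2*, which encodes an RNA-binding protein of *Igf2* mRNA (-0.68 ± 0.15, adjusted p = 0.011, and -0.32 ± 0.10, adjusted p = 0.0474). *Igfbp2* rose in the *S6K1* set (4.67 ± 1.18, adjusted p = 0.0221), with late WT libraries that ranged from 92.7 to 5694 CPM and overlapped early ones. *Irs2* fell there (-0.57 ± 0.16, adjusted p = 0.0306), and *Igfbp4* (-1.37 ± 0.41, adjusted p = 0.0488) and *Igf2bp1* (-0.69 ± 0.17, adjusted p = 0.0182) fell in the *S6K1/S6K2* set. None of 14 passed in KO libraries by edgeR (4 at an unadjusted p under 0.05, beside 1499 of 14132 genes, and 1 by DESeq2). In DKO libraries, where 4.78% of all genes passed, 2 of 14 did. *Igfbp3* rose (755 to 1543 against 205 to 489 CPM, 1.94 ± 0.34, adjusted p = 0.00998, n = 3 against 4) and *Igf1* fell at the edge of the threshold (66.7 to 94.5 against 117 to 187 CPM, -1.06 ± 0.28, adjusted p = 0.04999). *Igf1* is also made by macrophages, whose markers moved in the same direction in these comparisons, and their part in its values was not tested.

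**Figure D5:**
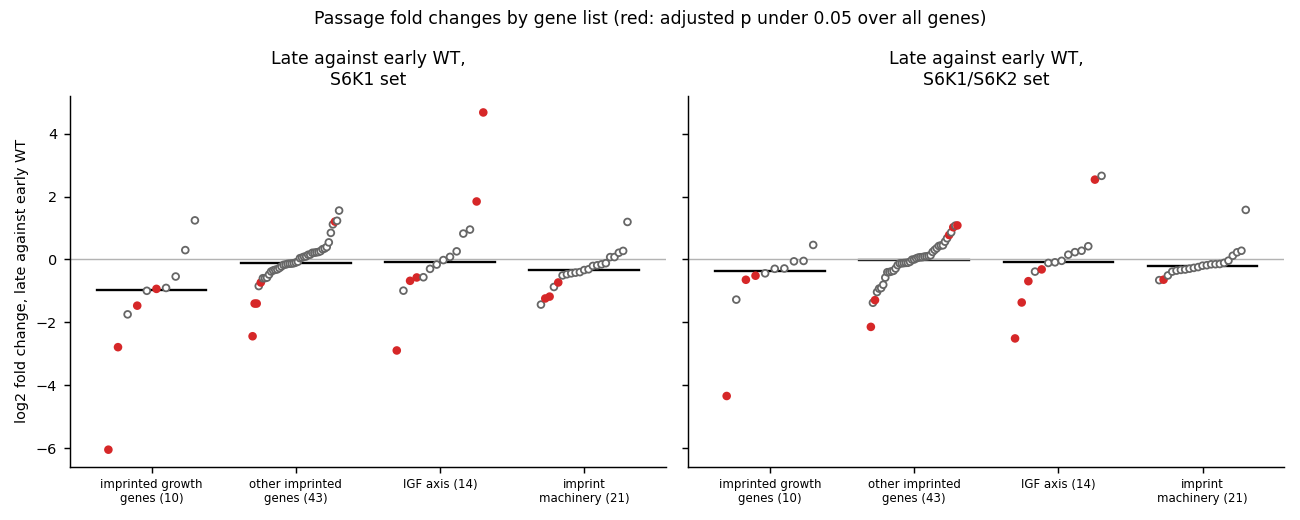
log2 fold change of late against early WT libraries (n = 4 against 4) for the tested genes of 4 lists, in each set; points are genes, filled red where the adjusted p over all genes was under 0.05, and bars are medians; for the 10 imprinted growth genes the fill is a description. The 43 other imprinted genes centred near 0 (medians -0.10 and 0.00). *Igf2*, known to be low at late passage when the list was written, had the lowest value of any gene drawn in either set.

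Genes that maintain imprints and DNA methylation were listed too. Of 21 tested of 23, 3 passed in the *S6K1* set and 1 in the *S6K1/S6K2* set, shares near or below the 12.9% and 13.2% of all genes. The 3 that fell in the *S6K1* set were *Tet2*, which encodes a methylcytosine dioxygenase (-1.24 ± 0.23, adjusted p = 0.00371, n = 4 against 4), *Zfp57*, a zinc-finger protein gene of imprint maintenance (-1.18 ± 0.22, adjusted p = 0.00483), and *Ctcf*, whose product binds the *H19* control region (-0.73 ± 0.20, adjusted p = 0.0291). The 1 that fell in the *S6K1/S6K2* set was *Uhrf1*, which recruits the maintenance methyltransferase (-0.64 ± 0.16, adjusted p = 0.0209). *Uhrf1* (-1.02 ± 0.18, adjusted p = 0.0103, n = 3 against 4) and *Ezh2*, a Polycomb methyltransferase gene (-0.79 ± 0.20, adjusted p = 0.0428), fell in DKO libraries, 2 of 21 beside 4.78% of all genes. Both are expressed in dividing cells, and 8 of 10 proliferation markers fell in the same comparison, where 3.95% of all genes were called lower. The part of this shift in the *Uhrf1* and *Ezh2* values was not tested. None of 21 passed in KO libraries by edgeR (3 at an unadjusted p under 0.05, beside 1499 of 14132 genes, and 0 by DESeq2). Of 15 other genes of fetal growth, *Plag1* (-1.68 ± 0.49, adjusted p = 0.0438) and *Gpc3* (-1.68 ± 0.38, adjusted p = 0.0132) fell with passage in the *S6K1* set, 2 of 11 tested beside 12.9% of all genes. *Hmga1* fell with passage in the *S6K1/S6K2* set (-0.90 ± 0.13, adjusted p = 0.00131) and in DKO libraries (-0.97 ± 0.15, adjusted p = 0.00511), 1 of 10 tested in each beside 13.2% and 4.78% of all genes. None of 11 passed in KO libraries by edgeR (1 at an unadjusted p under 0.05, beside 1499 of 14132 genes, and 0 by DESeq2).

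The 3 genes whose pattern over the 22 libraries lay nearest to that of *Igf2* were *Msln*, *Erg* and *Igf2as*, of 13898 genes tested in both sets. Likeness was the root mean square difference of log2 CPM centred within each set, 1.02, 1.08 and 1.08, respectively. *Msln*, which encodes the mesothelial surface protein mesothelin, had 6.17 to 64.7 CPM in early WT libraries and 0.470 to 1.54 CPM in late WT libraries of both sets, 1.11 to 1.75 CPM in KO and 0.968 to 3.48 CPM in DKO libraries. *Erg*, an ETS transcription factor gene of endothelial cells, had 3.00 to 22.4 CPM in early WT and 0.211 to 2.31 CPM in late WT libraries, 0.833 to 1.74 CPM in KO and 0.652 to 3.34 CPM in DKO libraries. The 6 endothelial markers summed to 4.40 to 11.3 CPM in early WT and 4.001 to 7.35 CPM in late WT libraries.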

How the data were processed

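RNA-seq of 22 libraries of serially passaged MEFs in 6 groups was analysed, with groups taken from the labels. From strand-marked mRNA libraries read from 1 end, the authors made a table of whole-number counts per gene, which was deposited without any normalization. The paper names TopHat, HTSeq and mm9, whereas the submitters' processing notes name STAR 2.7.1a, DESeq2 1.28.1 and mm10; the annotation release and strand setting are not given in the sources used here. Of 55401 identifiers, 58.8% were found in GENCODE vM1, which gave symbols for 97.0% of counts and exon lengths; positions and promoter sequences are those of RefSeq on GRCm38.p6. No pair of libraries of a group was as close as sampling noise (30 pairs, lowest chi-square per degree of freedom 20.6).

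CPM was the count per 1000000 counts of the library. Differences were tested with edgeR 4.0.16 (R 4.3.3; quasi-likelihood, robust, TMM, filterByExpr, the 3 groups of a set in 1 fit), with Benjamini-Hochberg adjustment over all genes tested and a threshold of 0.05; the scripts were tested on simulated data. An SE is the log2 fold change over the root of its F statistic. Alternatives were RLE scaling, DESeq2 1.42.0, no filter on low counts, the 2 groups compared only, all 6 groups in 1 fit, a Y-linked covariate and leaving out each library. The genes and lists were chosen with earlier results of these data known. All 10 genes are named; of the other lists, the 3 largest rises and falls per comparison among genes past the threshold with a mean of at least 1 CPM in 1 of the 2 groups are named, besides neighbours in the same imprinted domain, which were named after their values were seen; for *Igf2*, the 3 genes nearest in pattern (prior count 2) are named.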

Additional observations from a re-analysis of the deposited data

Results flagged for a closer look

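Of 48 groups of 4 libraries examined (the 10 genes and both ratios), 3 held a library far from the others by Dixon's criterion at the 95% level, and chance gives about 1 in 20. *H19* was at 702 CPM in the library SG23 of late WT *S6K1* MEFs, against 202 to 270 CPM in the other three. Both further cases concern the library SG57 of late WT MEFs of the *S6K1/S6K2* set. *Peg3* was at 116 CPM in SG57, against 264 to 276 CPM in the other libraries. *Mest* was at 242 CPM in SG57, against 7.38 to 31.2 CPM in the others.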

How the results depend on the processing

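Called genes of the 10 numbered 1 rather than 0 in KO with the Y-linked covariate, and 1 rather than 0 in DKO by DESeq2. The former was *Igf2*, whose low late-passage level entered the choice of the list. Leaving out 1 library each gave 0 to 1 in DKO (1 without SG57), 4 to 5 with passage in the *S6K1* set and 1 to 4, rather than 3, in the *S6K1/S6K2* set (1 without SG47 or SG59). With passage in the *S6K1* set, DESeq2 called 6 rather than 4, with 5 lower and 1 higher, *Dlk1*. *Dlk1* was also called higher there without SG19. The Y-linked covariate gave 6 in that set, all lower. In the *S6K1/S6K2* set, *Meg3* was called in 8 of 14 alternatives and *Igf2r* in 11 of 14. Other imprinted genes called numbered 1 with only the 2 groups compared and 4 by DESeq2 in DKO, rather than 2, and 8 with all 6 groups, 9 by DESeq2 and 12 with the Y-linked covariate with passage in the *S6K1* set, rather than 5. DESeq2 called 8 rather than 5 with passage in the *S6K1/S6K2* set. Leaving out 1 library each gave 1 to 3 in DKO (1 without SG62, SG64 or SG60), 3 to 6 in the *S6K1* set (3 without SG21 or SG22) and 1 to 6 in the *S6K1/S6K2* set (1 without SG46 or SG47, 2 without SG58, 3 without SG59).

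The sign of some genotype values near 0 turned. With the Y-linked covariate the KO values of *Meg3* and *Igf2r* were 0.0137 and -0.0201. When 1 library was left out, KO values ranged from -0.18 to 0.35 for *Plagl1* and from -0.0547 to 0.147 for *Igf2r*, and DKO values from -0.25 to 0.87 for *H19*, -0.30 to 2.17 for *Mest*, -0.14 to 0.56 for *Cdkn1c* and -0.0378 to 0.158 for *Grb10*. The late minus early difference in the *H19* to *Igf2* log2 ratio was 2.91 and 2.62, and 2.60 to 3.14 and 1.95 to 3.14 when 1 library was left out.

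Over all genes, DESeq2 called 250 rather than 6 in KO and 1172 rather than 686 in DKO. KO calls numbered 43 with no filter on low counts, 16 with all 6 groups, 25 with the Y-linked covariate and 2 to 9 when 1 library was left out. DKO calls numbered 97 to 783 when 1 library was left out (97 without SG62, 157 without SG64, 328 without SG58, 456 without SG59), and 466 were called with only the 2 groups compared. With passage in the *S6K1* set, 3284 were called with the Y-linked covariate rather than 1827. In the *S6K1/S6K2* set, 885 to 2247 rather than 1892 were called when 1 library was left out. The cause of these shifts was not tested. No paired analysis was possible because the labels give the groups no shared replicate numbers. Late-passage *Igf2* values rest on 5 to 48 reads a library, which limits the precision of its genotype values.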
